A study of Mus musculus with 28 samples.

Results

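Klf6 and 9 other genes of the Krüppel-like factor (KLF) family were described in RNA sequencing libraries of mouse pancreatic islets. The members were the 10 genes listed by symbol in the deposited expression table, Klf6, Klf2, Klf3, Klf4, Klf7, Klf9, Klf10, Klf11, Klf13 and Klf15, out of 14219 genes in all. The islets came from male mice of 10 to 12 weeks on a C57Bl6 and 129sv background, with 1 library per mouse from 120 to 150 islets that had recovered overnight in culture. Every mouse, control or not, carried Klf6 flox/flox alleles. The mice labelled βKlf6KO also carried Cre in 1 allele of the insulin gene Ins1, which is active in β cells, so that other islet cells keep Klf6. Mice labelled control had Ins1+/+ and no Cre. Within each genotype some mice received saline and others S961, a peptide antagonist of the insulin receptor. There were 6 libraries labelled control saline, 6 labelled βKlf6KO saline, 8 labelled control S961 and 8 labelled βKlf6KO S961, and the labels name the genotype difference under each treatment as the question.

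KLF proteins are transcription factors that share zinc fingers at the carboxyl end and bind GC-rich DNA, including GC boxes and CACCC motifs. Their amino-terminal parts differ and set the partner proteins. Klf2, Klf4, Klf6 and Klf7 are mainly activators that work with acetyltransferases, Klf3 is a repressor that recruits CtBP proteins, and Klf9, Klf10, Klf11 and Klf13 recruit the Sin3 co-repressor. Because the sites are alike, several members can occupy the same promoters, and members can regulate one another's genes. In the pancreas, Klf11 is known for binding the insulin gene promoter, and Klf4, Klf6 and Klf10 respond quickly to stress, growth factors or TGF-β in many cell types.

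The libraries held 28868638 to 45001633 reads over the listed genes. All levels below are log2 CPM (the deposited unit, in which the reads of a gene are scaled to library size), and differences are on that log2 scale unless another scale is named. Klf6, the gene that the βKlf6KO label says was deleted, was not lower in the libraries so labelled, so directions drawn from genotype hold for labels only. A principal component with 54.9% of the variance followed the GC content of transcripts (Spearman -0.845 between its gene loadings and GC over 13584 genes), and the libraries labelled control S961 replicate 2, control saline replicate 4 and control S961 replicate 8 stood highest on it. Counts of called members were the same without those 3 libraries. Markers of β cells were abundant in every group, and acinar cell markers summed to 3833.5 to 90695 CPM over single libraries. The markers of endothelial cells, fibroblasts, macrophages and lymphocytes all had reads in every group.

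Promoter sequences are shown for Klf6, Klf3, Klf4, Klf15, Klf11 and Klf9, because KLF proteins bind the GC-rich motifs that these stretches carry. Other members whose RNA moved with that of Klf6, such as Klf2 and Klf7, are not shown. RefSeq windows on GRCm38.p6, from 250 bases before to 50 bases after the annotated start, were found for 9 of the 10 members, all but Klf10. Both strands were searched for CACCC (the CACCC box), GGGCGG (the GC box), CACGTG (an E-box), TGACGTCA (the cyclic AMP response element), TGACTCA (an AP-1 site) and the serum response element, and matches were allowed to overlap. GGGCGG matched in 8 of the 9 windows, against 35.7% of 32851 RefSeq windows of the same length, and CACCC in 6 of the 9, against 57.5%. The member windows were also rich in GC, from 58.3% to 77.7% against a median of 52.7% over all windows. CACGTG matched in 4 windows, those of Klf6, Klf4, Klf11 and Klf15, against 7.15% of all windows. The cyclic AMP, AP-1 and serum response letters, found in 1.79%, 5.20% and 1.63% of all windows, matched in none of the 9. Each sequence below is the part of the window before both the RefSeq and the GENCODE M21 start, 5′ to 3′ on the gene's strand, and capitals mark GGGCGG and CACCC on either strand.
Klf6 (chr13:5861239-5861481, plus strand): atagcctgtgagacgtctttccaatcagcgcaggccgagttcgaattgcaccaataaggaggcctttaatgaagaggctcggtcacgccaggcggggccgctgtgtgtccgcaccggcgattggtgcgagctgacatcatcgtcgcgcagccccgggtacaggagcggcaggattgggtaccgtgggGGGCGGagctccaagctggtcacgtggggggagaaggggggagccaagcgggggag
Klf3 (chr5:64803271-64803387, plus strand): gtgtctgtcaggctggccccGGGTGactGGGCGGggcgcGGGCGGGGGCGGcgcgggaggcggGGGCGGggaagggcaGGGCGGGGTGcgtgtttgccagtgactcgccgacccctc
Klf4 (chr4:55532476-55532725, minus strand): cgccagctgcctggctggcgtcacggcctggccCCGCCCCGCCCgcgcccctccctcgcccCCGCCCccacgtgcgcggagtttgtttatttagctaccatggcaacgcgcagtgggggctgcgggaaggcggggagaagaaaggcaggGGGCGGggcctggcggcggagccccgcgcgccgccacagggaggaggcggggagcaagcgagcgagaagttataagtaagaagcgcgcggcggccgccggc
Klf15 (chr6:90462326-90462575, plus strand): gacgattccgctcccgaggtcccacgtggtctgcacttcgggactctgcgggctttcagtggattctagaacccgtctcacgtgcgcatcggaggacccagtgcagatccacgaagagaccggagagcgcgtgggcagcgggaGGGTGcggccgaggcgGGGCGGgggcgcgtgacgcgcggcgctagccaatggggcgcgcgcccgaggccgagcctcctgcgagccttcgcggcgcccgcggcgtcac
Klf11 (chr12:24651121-24651273, plus strand): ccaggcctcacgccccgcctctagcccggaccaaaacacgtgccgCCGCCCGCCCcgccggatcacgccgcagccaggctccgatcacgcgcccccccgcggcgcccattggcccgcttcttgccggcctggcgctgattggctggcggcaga
Klf9 (chr19:23140976-23141225, plus strand): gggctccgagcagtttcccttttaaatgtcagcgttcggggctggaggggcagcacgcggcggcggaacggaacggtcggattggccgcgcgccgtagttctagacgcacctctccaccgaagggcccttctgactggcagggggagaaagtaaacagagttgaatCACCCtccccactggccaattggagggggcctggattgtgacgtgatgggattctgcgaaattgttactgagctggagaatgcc
The Klf3 stretch carried 5 GC boxes in 117 bases and the Klf4 stretch 4 in 250, while the Klf6 stretch carried 1. The Klf9 stretch, from a gene whose RNA ran against several marker lists as given below, carried no GC box and 1 CACCC. A match is a description of the letters only, and nothing in these data measured binding.

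Klf6 was the most abundant of the 10 members and was at similar levels under both genotype labels. Klf6 (ENSMUSG00000000078, GRCm38 chromosome 13, 5861482 to 5870394, plus strand), known as a growth suppressor and an early response gene to injury, ranged from 6.35 to 7.67 with a median of 6.99 in libraries labelled control saline. In those labelled βKlf6KO saline it ranged from 6.69 to 7.41 with a median of 6.89. All 6 values of the labelled knockout lay inside the range of the controls. After S961 it ranged from 6.18 to 8.42 with a median of 6.79 under the control label, and from 6.38 to 7.94 with a median of 7.34 under the βKlf6KO label. The single highest library, 342 CPM and 9734 reads, was labelled control S961 replicate 8, and the lowest, 72.4 CPM and 2648 reads, was labelled control S961 replicate 5. The labelled genotype difference was -0.03 ± 0.29 (SE) after saline (95% interval -0.63 to 0.57, limma adjusted p = 0.974) and 0.28 ± 0.25 after S961 (interval -0.24 to 0.79, adjusted p = 0.517). Averaged over both treatments, the interval ran from -0.27 to 0.52, which leaves out a fall by 1 log2 unit in the islet as a whole. The table counts reads over the whole gene, so a shortened transcript would still be counted, and the share of islet RNA from cells without Cre was not measured. In bulk islets, fewer cells of a type and less RNA per cell cannot be told apart, here and in every result below.

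Per kilobase of annotated exon, the members spanned a wide range of RNA levels. Klf6 stood at 31.9 ± 12.9 CPM per kb (SD over 28 libraries), above Klf9, the next member, in 28 of 28 libraries. Klf9 followed at 10.3 ± 1.59 CPM per kb and Klf10 at 9.44 ± 1.95, and these neighbours did not differ beyond their spread, with Klf9 higher in 14 of 28 libraries. Klf11 at 6.64 ± 0.88 CPM per kb was below Klf10 in all 28. Klf3 at 4.61 ± 0.95 and Klf13 at 4.47 ± 0.54 CPM per kb were not ordered, with Klf3 higher in 12 of 28 libraries. These levels depend on the length used, the union of all annotated exons. For Klf3 that union is 11243 bases, while its longest transcript has 5221, so its place in the order may rest on this choice. The order under another length was not tested. Klf7 stood at 3.33 ± 0.72 and Klf4 at 2.81 ± 1.02 CPM per kb, with Klf7 the higher in 20 of 28 libraries. Klf15 at 1.10 ± 0.37 and Klf2 at 0.549 ± 0.332 CPM per kb were the lowest, and Klf2 rested on 9 to 101 reads per library. All 10 members passed the filter of at least 1 CPM in at least 6 libraries, Klf2 with 11 libraries at or above it and the others with 28.

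**Figure D1:**
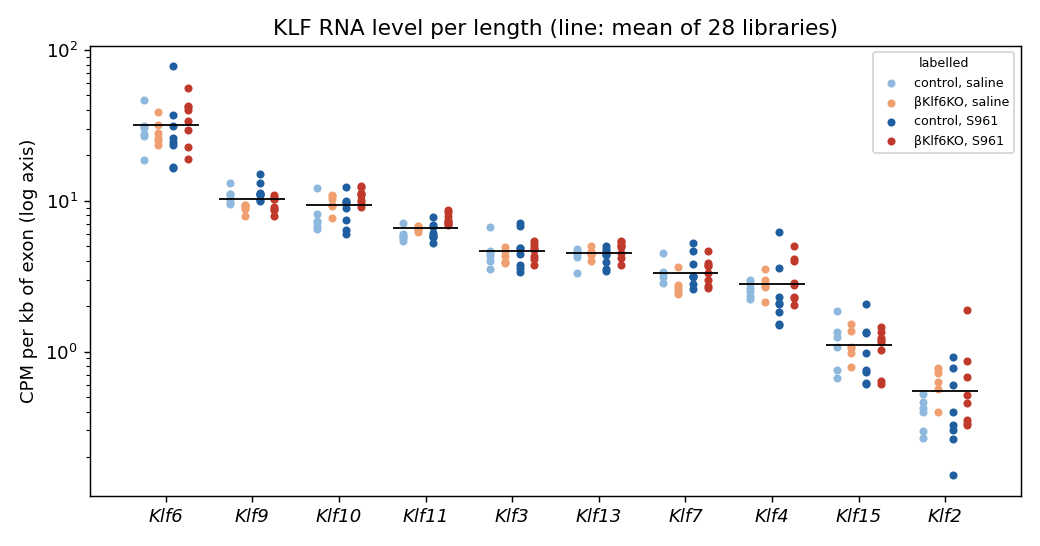
RNA level per length of the 10 members in CPM per kilobase of exon (vertical log axis), each point 1 of 28 libraries, coloured by labelled group, with a line at the mean. Klf6 lies above all other members at a mean of 31.9, and Klf2 is lowest at 0.549.

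The members also differed in how much they varied between mice of 1 group. The SD of log2 CPM within groups was 0.70 for Klf2, 0.53 for Klf6, 0.52 for Klf15 and 0.47 for Klf4. Klf6 was therefore more variable than 76.1% of the 13591 genes tested. At the other end, the SD was 0.13 for Klf11 and 0.16 for Klf9, below those of most genes (percentiles 5.89 and 10.6). From the lowest to the highest library, CPM differed 12.5-fold for Klf2, 4.72-fold for Klf6, 4.12-fold for Klf4 and 1.65-fold for Klf11. The part of counting error in the spread of Klf2, the member with the fewest reads, was not tested.

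**Figure D2:**
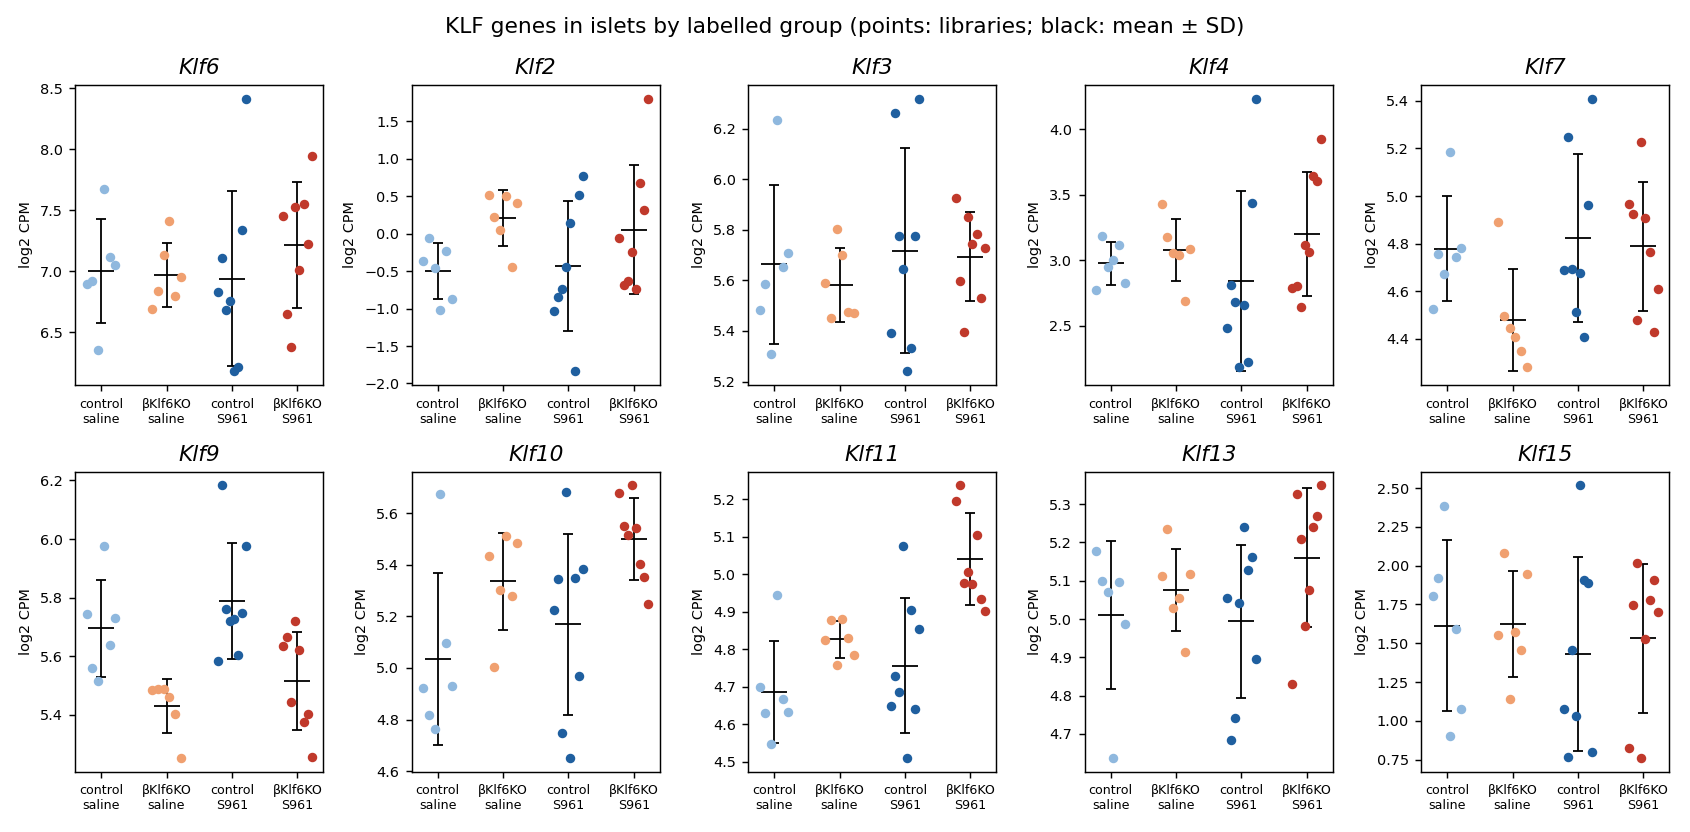
Levels of the 10 members in log2 CPM (vertical axes differ between panels) by labelled group, each point 1 library (6 per saline group, 8 per S961 group), with black lines for the mean ± SD. Klf9 after saline and Klf11 in the S961 against the saline libraries labelled βKlf6KO are the cases in which all points of 1 group lie beyond those of the other.

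Among the activators related to Klf6, none passed the test in any comparison of genotype or treatment. Klf2 (ENSMUSG00000055148, chromosome 8, 72319033 to 72321656, plus strand), known for keeping lymphocytes and vessel endothelium quiescent, had medians of -0.41 in libraries labelled control saline, 0.31 in βKlf6KO saline, -0.59 in control S961 and -0.16 in βKlf6KO S961. Its genotype difference was 0.71 ± 0.40 after saline and 0.49 ± 0.35 after S961, the largest of the 10 members in each, and did not pass in either (adjusted p = 0.454 and 0.405). The saline groups overlapped from -0.45 to -0.06. Klf4 (ENSMUSG00000003032, chromosome 4, 55527143 to 55532466, minus strand), a reprogramming factor and a regulator of epithelial differentiation, had medians of 2.98, 3.07, 2.67 and 3.09 in the same order of groups. Its highest library, at 4.23, was labelled control S961 replicate 8, as for Klf6, in a group whose lowest library was at 2.19. Its genotype difference was 0.36 ± 0.23 after S961 (adjusted p = 0.345). Klf7 (ENSMUSG00000025959, chromosome 1, 64029447 to 64122282, minus strand), the closest relative of Klf6 and a factor of nerve and fat cell development, had medians of 4.75, 4.43, 4.69 and 4.84. After saline it differed by -0.30 ± 0.16 between the genotype labels (adjusted p = 0.411), with 5 of 6 libraries labelled βKlf6KO between 4.28 and 4.49, below every control value, and 1 library at 4.89 inside the controls' range.

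Klf3, the CtBP-recruiting repressor (ENSMUSG00000029178, chromosome 5, 64803388 to 64832901, plus strand), had medians of 5.62 in libraries labelled control saline, 5.53 in βKlf6KO saline, 5.71 in control S961 and 5.74 in βKlf6KO S961. Its 3 highest values, 6.24, 6.26 and 6.32, were in the 3 libraries that stood highest on the GC-related component. The genotype difference was -0.08 ± 0.16 after saline and -0.02 ± 0.14 after S961 (adjusted p = 0.888 and 0.926), smaller than the spread between mice.

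Of the Sin3-recruiting members, Klf11 was higher in the libraries labelled βKlf6KO after S961, and it was the 1 member of 10 to pass the test there, against 4.36% of all genes tested in that comparison, 2.35% higher and 2.01% lower. Klf11 (ENSMUSG00000020653, chromosome 12, 24651274 to 24662789, plus strand) ranged from 4.51 to 5.08 with a median of 4.71 under the control label, and from 4.90 to 5.24 with a median of 4.99 under the βKlf6KO label. The groups overlapped through 2 control libraries, replicate 4 at 5.08 and replicate 6 at 4.91. The difference was 0.28 ± 0.075 (SE, 95% interval 0.13 to 0.44, limma adjusted p = 0.0342), or 1.22-fold. After saline the medians were 4.65 and 4.83 and the difference 0.14 ± 0.087 (adjusted p = 0.523). Within lanes 4, 5, 6 and 7, which the labels give and which held all 4 groups, the S961 difference was 0.24, 0.48, 0.24 and 0.17 and the saline difference 0.16, 0.27, 0.08 and 0.18, all positive. Here and below, a saline lane value compares 1 library of 1 genotype label with 2 of the other, and an S961 lane value 2 with 2. The call was lost without any 1 of 6 libraries, control S961 replicates 2, 3 and 5 and βKlf6KO S961 replicates 2, 6 and 7, with adjusted p from 0.0503 to 0.0779. It was also lost with median centring (difference 0.23, adjusted p = 0.187), where 3.47% of all genes were called. The other Sin3-recruiting members are given next.

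Klf10, also called TGF-β-inducible early gene (ENSMUSG00000037465, chromosome 15, 38291463 to 38300706, minus strand), had medians of 4.93 in libraries labelled control saline and 5.37 in βKlf6KO saline, with ranges of 4.76 to 5.68 and 5.0 to 5.51. After S961 the medians were 5.29 and 5.53, with ranges of 4.65 to 5.68 and 5.25 to 5.71. After saline 5 of 6 control libraries lay at or below 5.10, and 5 of 6 βKlf6KO libraries lay above it. The difference was 0.30 ± 0.15 after saline (adjusted p = 0.385) and 0.33 ± 0.13 after S961 (adjusted p = 0.140). It was positive in 4 of 4 lanes under each treatment, each with 1 or 2 libraries per genotype label.

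Klf9, a gene that glucocorticoids and thyroid hormone induce (ENSMUSG00000033863, chromosome 19, 23141226 to 23168134, plus strand), was the 1 member of 10 whose genotype groups did not overlap after saline, against 4.10% of all genes. It ranged from 5.25 to 5.49 under the βKlf6KO label and from 5.52 to 5.98 under the control label. The difference was -0.27 ± 0.10 (SE, 95% interval -0.47 to -0.06) and did not pass over all genes (limma adjusted p = 0.170). After S961 the ranges were 5.26 to 5.72 and 5.58 to 6.18, which overlapped, and the difference was -0.27 ± 0.087 (adjusted p = 0.0639). Within lanes 4 to 7 the saline difference was -0.17, -0.03, -0.35 and -0.40, and the S961 difference 0.03, -0.31, -0.27 and -0.53. Klf13 (ENSMUSG00000052040, chromosome 7, 63886351 to 63938915, minus strand), a regulator of the chemokine Ccl5 in T cells, had medians of 5.08 in both saline groups, 5.05 in control S961 and 5.22 in βKlf6KO S961. Its genotype difference after S961 was 0.17 ± 0.093 (adjusted p = 0.285).

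Klf15 (ENSMUSG00000030087, chromosome 6, 90462576 to 90475238, plus strand), a glucocorticoid-induced regulator of amino acid and glucose metabolism, had medians of 1.70 in libraries labelled control saline, 1.56 in βKlf6KO saline, 1.27 in control S961 and 1.72 in βKlf6KO S961. Single libraries ran from 0.76 to 2.52, and the ranges of the 4 groups overlapped. The genotype difference was 0.01 ± 0.29 after saline and 0.10 ± 0.25 after S961 (adjusted p = 0.990 and 0.818).

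Across the 10 members, 0 passed after saline, against 2.78% of all 13591 genes (2.09% higher and 0.692% lower), and 1 was lower at an unadjusted p below 0.05, Klf9. The voom weights in limma, run on recovered reads, also called 0. Library weights called 4 members (Klf7, Klf9, Klf10 and Klf11) where they called 22.2% of all genes, and the GC-related component as covariate called 2 (Klf9 and Klf10) where it called 20.8%. The median difference of the 10 was 0.04 after saline and 0.22 after S961, beside medians over all genes of 0.00 and 0.02. The genotype difference averaged over both treatments was added after these values were seen, because it uses all 28 libraries. In it Klf11 was higher by 0.21 ± 0.058 (adjusted p = 0.0140), Klf10 was higher by 0.32 ± 0.10 (adjusted p = 0.0364) and Klf9 fell by 0.27 ± 0.066 (adjusted p = 0.00713). These 3 of 10 stand against 15.3% of all genes called in the averaged comparison, 7.62% higher and 7.64% lower. Klf2 at 0.60 ± 0.26 did not pass (adjusted p = 0.122). Fibroblast and macrophage markers moved with the same labels, as given below. With the endothelial and macrophage marker means as covariates none of the 3 calls was kept, in a fit that called 1.69% of all genes. In that fit the Klf9 difference went to -0.04 (adjusted p = 0.742), and the Klf10 and Klf11 differences stood at 0.41 (adjusted p = 0.157) and 0.29 (adjusted p = 0.0557). With median centring 1 call was left, that of Klf9, where 12.8% of all genes were called.

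**Figure D3:**
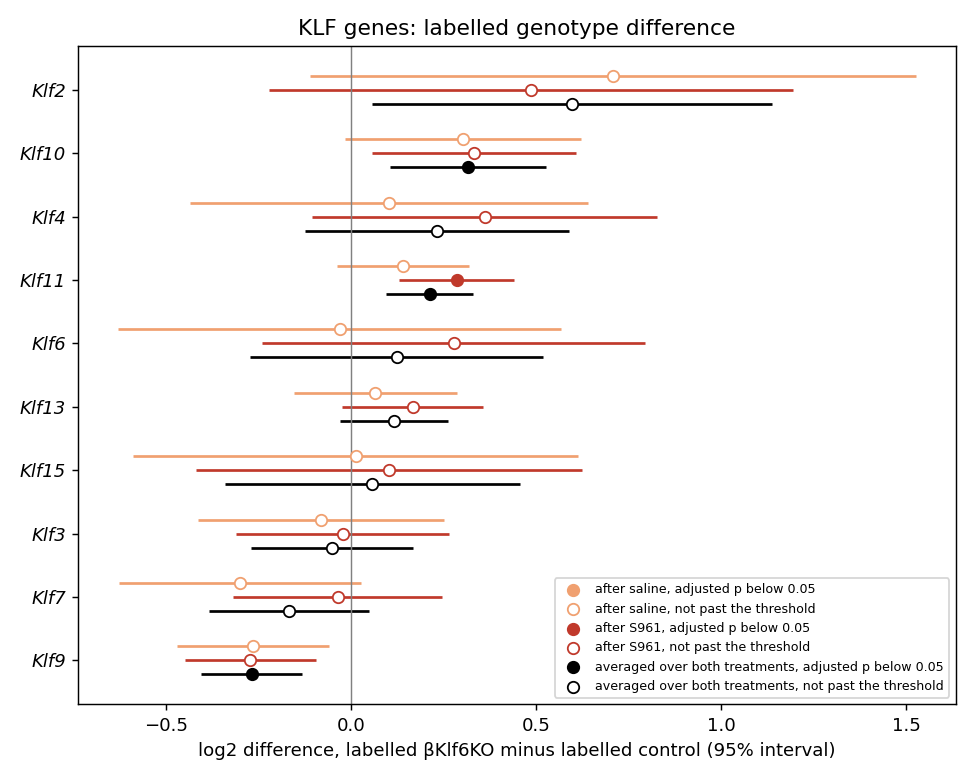
Log2 difference of each member between the labelled genotypes (horizontal axis, βKlf6KO minus control) with its 95% interval, after saline, after S961 and averaged over both treatments. Filled points passed an adjusted p of 0.05: Klf11 after S961 at 0.28, and Klf10, Klf11 and Klf9 in the averaged comparison.

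No member passed the test for S961 against saline, and the 95% intervals do not exclude sizeable changes. In libraries labelled βKlf6KO they ran from -0.92 to 0.61 for Klf2 and from -0.31 to 0.81 for Klf6. In libraries labelled control, 0 of 10 members passed, against 0.00% of all genes, and 0 had an unadjusted p below 0.05. No member had groups without overlap there, against 0.00736% of all genes. In those labelled βKlf6KO, 0 of 10 passed, against 0.00%, and 2 were higher at an unadjusted p below 0.05. One was Klf11, from 4.76 to 4.88 after saline and from 4.90 to 5.24 after S961, groups that did not overlap and that differed by 0.21 ± 0.081 (limma adjusted p = 0.9997). Of all genes, 0.272% had groups without overlap in that comparison. The other was Klf7, with a difference of 0.31 ± 0.15 (adjusted p = 0.9997) and overlapping groups. Averaged over both genotype labels, which does not rest on those labels, 0 of 10 passed, against 0.00%, and 1 had an unadjusted p below 0.05, Klf11 at 0.14 ± 0.058 (adjusted p = 0.953). The averaged S961 difference of Klf6 was 0.09 ± 0.19, with a 95% interval of -0.30 to 0.49. For the difference between the genotype labels in their S961 response, 0 of 10 passed, against 0.00%, and 0 had an unadjusted p below 0.05. The voom weights called 0 members in each of these comparisons.

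Across the 28 libraries, Klf6 moved most closely with Klf3 and Klf4 among the 9 other members. For Klf3, Pearson r was 0.77 and Spearman rho 0.78 (permutation p = 1e-05 for each, the smallest that 100000 permutations can give, adjusted p over the 9 relations = 4.5e-05 and 9.0e-05). For Klf4, r was 0.74 (permutation p = 1e-05, adjusted p = 4.5e-05) and rho 0.66 (adjusted p = 5.85e-04). The highest Klf6 library, labelled control S961 replicate 8, was also the highest for both genes. Without the 2 libraries farthest from the Klf6 median, labelled control S961 replicate 8 and βKlf6KO S961 replicate 8, r was 0.75 for Klf3 and 0.55 for Klf4. Within lanes 4, 5, 6 and 7, each of 7 libraries, r was 0.82, 0.84, 0.82 and 0.88 for Klf3 and 0.16, 0.55, 0.84 and 0.93 for Klf4. Within groups, Klf3 had r of 0.96 in libraries labelled control saline, 0.83 in control S961, 0.65 in βKlf6KO saline and 0.72 in βKlf6KO S961. Klf4 had 0.15, 0.90, -0.20 and 0.75 in that order, so that its relation was seen in the S961 groups and not in the saline groups, a difference that was not tested. With the GC-related component removed, r was 0.90 for Klf3 and 0.79 for Klf4.

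Klf15 ran against Klf6, with r of -0.56 (permutation p = 0.00196, adjusted p = 0.00588) and rho of -0.48 (adjusted p = 0.0318). It was -0.58 without the 2 farthest libraries and -0.60, -0.90, -0.65 and -0.46 within lanes 4 to 7. The call was lost with the component removed (r of -0.39, adjusted p = 0.0698) and without the 3 libraries highest on it (r of -0.45, adjusted p = 0.0513). Klf2 had r of 0.54 (permutation p = 0.00288, adjusted p = 0.00648) and rho of 0.45 (adjusted p = 0.0414), and within the lanes 0.02, -0.28, 0.64 and 0.69. Without the 2 farthest libraries r for Klf2 was 0.34 (adjusted p = 0.107) and no longer passed, so the relation as measured rests on those libraries. It passed at 0.64 without the 3 libraries highest on the component, which include control S961 replicate 8, and at 0.73 with the component removed. Klf7 had r of 0.50 (permutation p = 0.00642, adjusted p = 0.0116), 0.76, 0.22, 0.64 and 0.77 within the lanes and 0.42 without the 2 farthest (adjusted p = 0.0607), and its rho of 0.38 did not pass (adjusted p = 0.0826). Klf7 also did not pass with the component removed (r of 0.29, permutation adjusted p = 0.197) or without the 3 libraries highest on it (0.27, adjusted p = 0.230). Within libraries labelled control saline, control S961, βKlf6KO saline and βKlf6KO S961, Klf7 had 0.78, 0.86, -0.45 and 0.20. Klf10 at 0.36, Klf11 at 0.27, Klf9 at 0.16 and Klf13 at -0.23 did not pass (adjusted p from 0.0948 to 0.428). With median centring of the libraries Klf10 and Klf11 did pass, at 0.47 (adjusted p = 0.0169) and 0.43 (adjusted p = 0.0273). Over all genes tested the median r with Klf6 was 0.04, with quartiles at -0.41 and 0.38, and Klf3 and Klf4 ranked 410 and 573 among 13590 genes.

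**Figure D4:**
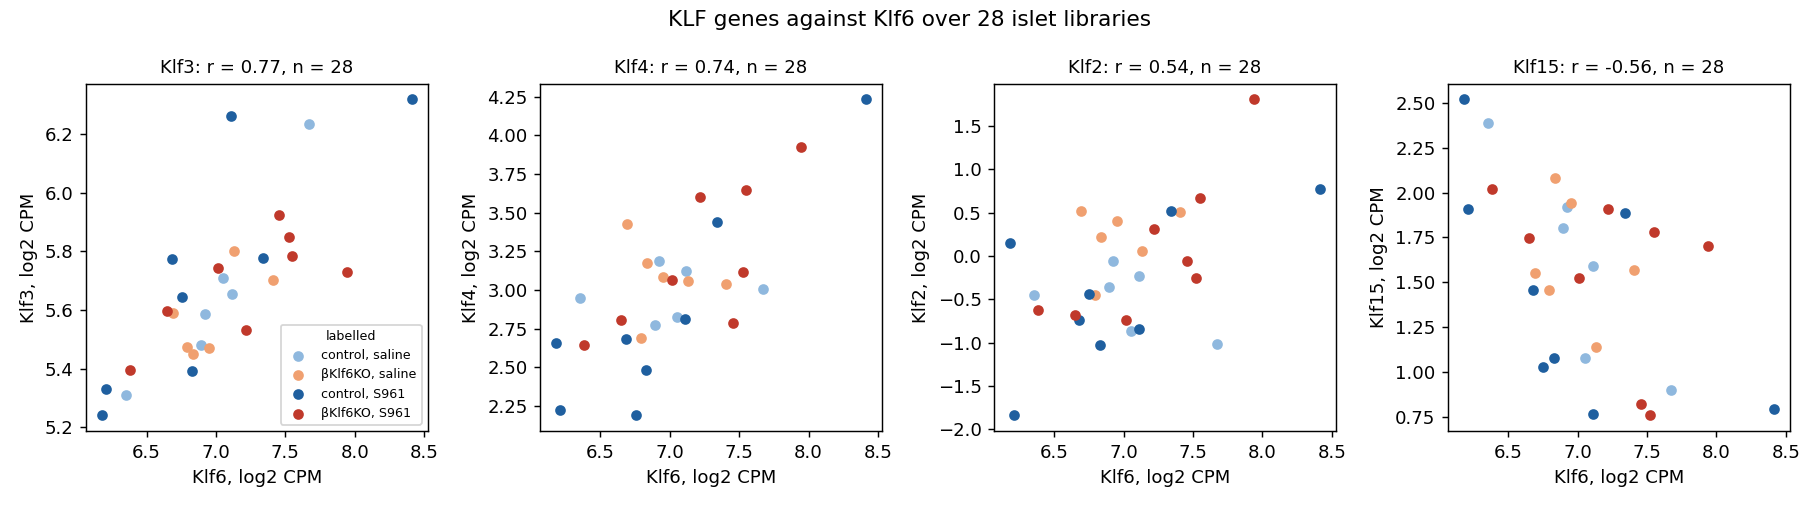
Levels of Klf3, Klf4, Klf2 and Klf15 (vertical axes, log2 CPM) against Klf6 (horizontal axis, log2 CPM), each point 1 of 28 libraries coloured by labelled group. Klf3 and Klf4 rise with Klf6 (r of 0.77 and 0.74), Klf15 falls (r of -0.56), and the rightmost point is the library labelled control S961 replicate 8 at 8.42.

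Among the 9 other members, 13 of 36 pairs passed at an adjusted p below 0.05, a family added after the data were seen. The paralogs Klf10 and Klf11 were the closest pair (r of 0.82, rho of 0.87, permutation adjusted p = 7.2e-05), with r of 0.80 without the 2 libraries farthest in Klf10 and 0.89, 0.82, 0.75 and 0.77 within lanes 4 to 7. Within groups it was 0.96 and 0.87 in libraries labelled control saline and control S961 and -0.25 and 0.52 in those labelled βKlf6KO saline and βKlf6KO S961. Klf2 and Klf4, the pair best known from vessel endothelium, had r of 0.79 (rho of 0.73, permutation adjusted p = 7.2e-05), 0.71 without the 2 farthest and 0.76, 0.20, 0.85 and 0.80 within the lanes. Both of these pairs kept their r with the GC-related component removed (0.84 and 0.83). The mean of endothelial markers did not run with Klf2 or Klf4 (r of -0.37 and -0.39, permutation adjusted p = 0.0920 and 0.0786). Without the 2 libraries farthest in that mean, r was -0.06 and -0.02. Klf3 ran with Klf7 (r of 0.75) and against Klf15 (r of -0.76), Klf7 ran with Klf9 (0.73), and Klf13 with Klf15 (0.70). With the component removed these 4 relations stood at 0.20, -0.28, 0.22 and 0.18.

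**Figure D5:**
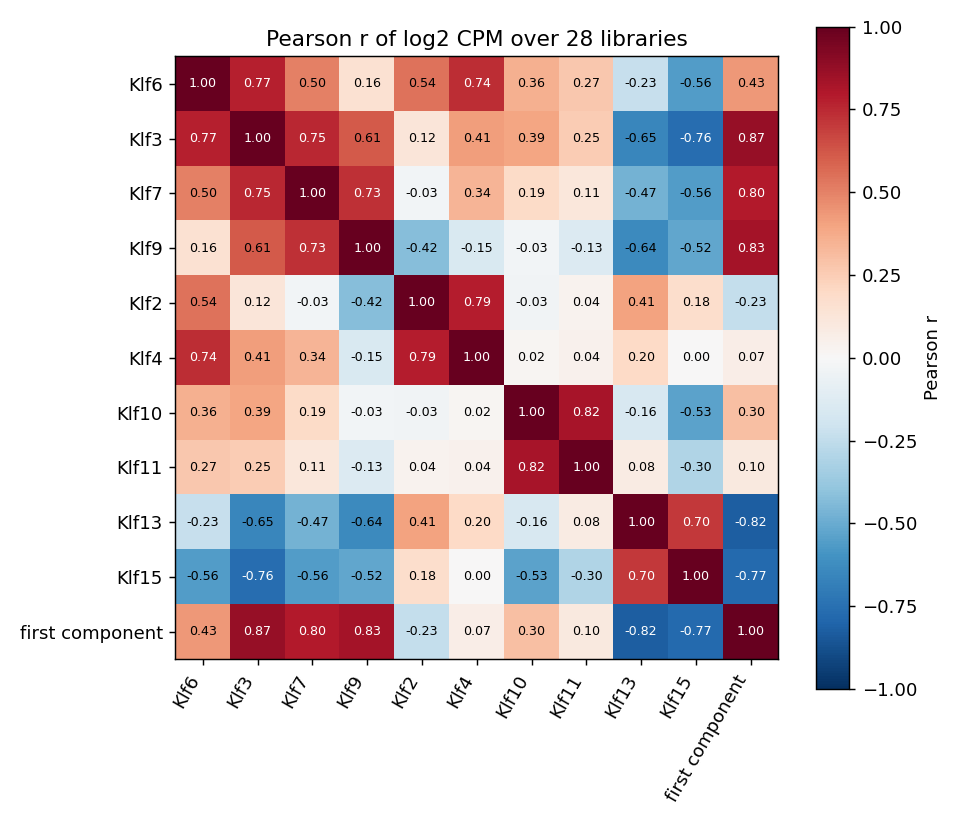
Pearson r of log2 CPM over 28 libraries between the 10 members and with the GC-related component (last line), as colour and number. Klf10 and Klf11 (0.82) and Klf2 and Klf4 (0.79) form pairs whose relation to the component did not pass over the 28 libraries pooled. Klf3, Klf9 and Klf7 run with it (0.87, 0.83 and 0.80) and Klf13 and Klf15 against it (-0.82 and -0.77).

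The component moved with 5 of the 10 members. Klf3, Klf7 and Klf9, with transcripts of 45.7%, 45.3% and 47.5% GC, ran with it, and Klf13 and Klf15, at 55.5% and 54.9%, ran against it (permutation adjusted p = 1.0e-04 for each, in a family of 90 relations of members with the component and with gene list means). Klf6, at 42.4% GC the lowest of the members, had r of 0.43 with it and did not pass (adjusted p = 0.0524). Klf2, at 61.6% the highest, had -0.23. Klf4 at 54.6%, Klf10 at 46.9% and Klf11 at 48.9% had 0.07, 0.30 and 0.10, and did not pass either. Within libraries labelled control saline, control S961, βKlf6KO saline and βKlf6KO S961, Klf10 had 0.93, 0.31, 0.24 and 0.90. Klf11 had 0.91, 0.17, -0.25 and 0.40 in that order. Whether r with the component followed GC content over the 10 members was not tested. What set the position of a library on this component was not tested.

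Several members also followed the markers of islet cell types and state, in the same family of 90, of which 39 passed. The mean of 11 β cell markers ran against Klf3 (r of -0.75), Klf10 (-0.74) and Klf6 (-0.70, permutation adjusted p = 2.6e-04), and within lanes 4 to 7 the Klf6 value was -0.66, -0.83, -0.82 and -0.94. By group, the Klf6 value was -0.86 in control saline, -0.85 in control S961, -0.21 in βKlf6KO saline and -0.56 in βKlf6KO S961. The mean of 9 macrophage markers ran against Klf9 (r of -0.84, rho of -0.81, permutation adjusted p = 1.0e-04), with -0.33, -0.79, -0.94 and -0.89 within the lanes, as did the mean of immediate early genes such as Fos and Egr1 (-0.80). Klf9 also ran against the means of ductal (-0.68), acinar (-0.67) and fibroblast markers (-0.62, permutation adjusted p = 7.2e-04, 7.4e-04 and 0.0024). With the component removed these 3 values were -0.37, -0.17 and -0.76. With the component removed, r was -0.62, -0.73 and -0.61 for the β cell markers with Klf3, Klf10 and Klf6, and -0.69 and -0.48 for the macrophage markers and immediate early genes with Klf9. Klf13, which runs against the component, ran with the immediate early genes (0.78) and the acinar markers (0.74), at 0.43 and 0.36 with the component removed. Klf2 ran with the acinar markers (0.64, and 0.70 with the component removed). The mean of the list of glucocorticoid and clock output genes ran against Klf6 (-0.72) and with Klf15 (0.57), at -0.64 and 0.29 with the component removed. That list joins genes that moved in opposite directions with the genotype labels, as given below. For Klf9, itself glucocorticoid-induced, the relation with that list differed with the handling of the GC-related component. It did not pass as measured (r of -0.08, permutation adjusted p = 0.740), and r was 0.40 without the 3 libraries highest on the component and 0.76 with the component removed.

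By likeness over the 28 libraries, 8 genes of 10242 eligible followed Klf6 most closely. They were Serpinb6a (r of 0.96), a serine protease inhibitor, Ak3 (0.95), a mitochondrial adenylate kinase, Cxadr (0.95), the coxsackie and adenovirus receptor of cell junctions, Elovl7 (0.95), a fatty acid elongase, Acot9 (0.94), a mitochondrial thioesterase, Rab27b (0.94), a GTPase of secretory granules, Rras2 (0.94), a Ras-related GTPase, and Hacd1 (0.94), a fatty acid elongation enzyme. The lowest were the pacemaker channel Hcn4 (-0.89), the RNA-binding Celf6 (-0.87), the synaptic vesicle priming factor Unc13a (-0.86) and the adaptor Apba1 (-0.86). All 8 stayed between 0.91 and 0.95 without the 3 libraries highest on the component, and the points are single mice that share library, depth and tissue makeup.

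Of the wider family, 14 of 17 listed KLF genes were tested. The 4 outside the members, Klf5, Klf8, Klf12 and Klf16, gave 0 calls in each comparison. After S961 Klf16 differed by 0.39 ± 0.17 and Klf12, like Klf3 a CtBP-recruiting repressor, by -0.52 ± 0.20 between the genotype labels (limma adjusted p = 0.185 and 0.126), both with an unadjusted p below 0.05. Of the related SP factors, 5 of 9 were tested and 0 passed, with 0 at an unadjusted p below 0.05 under either treatment. Of 14 KLF cofactors, 0 passed after saline (2 lower at an unadjusted p below 0.05) and 1 after S961, the acetyltransferase Ep300, lower by -0.40 ± 0.12 (adjusted p = 0.0466). Of all genes 4.36% were called after S961. In the averaged comparison Ep300, its paralog Crebbp and the co-repressor Ncor1 were lower, by -0.38, -0.33 and -0.24, which is 3 of 14 against 7.64% of all genes called lower.

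Genes reported elsewhere as targets of KLF6 were partly higher in libraries labelled βKlf6KO after S961, where 4 of 12 were called higher and 1 lower, against 4.36% of all genes in either direction. The cell cycle inhibitor Cdkn1a was higher by 0.76 ± 0.17 (limma adjusted p = 0.0171), the growth factor Tgfb1 by 0.78 ± 0.23 (adjusted p = 0.0486), the collagen gene Col1a1 by 1.79 ± 0.41 (adjusted p = 0.0190) and the matrix protease Mmp14 by 0.93 ± 0.26 (adjusted p = 0.0430). The receptor Igf1r was lower by -0.43 ± 0.099 (adjusted p = 0.0194). The median of the 12 was 0.54, beside 0.02 over all genes. After saline 0 of the 12 passed, 2 higher and 1 lower at an unadjusted p below 0.05, with a median of 0.21. Col1a1 is also one of the fibroblast markers, which moved in the same direction.

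Of 17 immediate early genes 0 passed after saline (4 higher at an unadjusted p below 0.05) and 0 after S961 (7 higher), while 5 were higher in the averaged comparison, among them Fos at 0.66, Nr4a1 at 0.69 and Ier3 at 0.66, against 7.62% of all genes called higher. Of 17 genes of glucocorticoid and clock output, 1 was higher after saline, the clock repressor Cry1 by 0.37 ± 0.099 (adjusted p = 0.0373), and 0 passed after S961 (3 higher and 4 lower at an unadjusted p below 0.05). In the averaged comparison Cry1, Arntl and Nfil3 were higher and Nr1d2, Hlf and Tef lower, 6 of 17 against 15.3% of all genes called in either direction.

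Cell type markers moved with the genotype labels as follows, to be read against 2.09% of all genes called higher and 0.692% lower after saline, and 2.35% higher and 2.01% lower after S961. Of 10 fibroblast and stellate cell markers, 2 were higher after saline and 5 after S961, and their summed level ran from 88.0 to 194 CPM in libraries labelled control saline, 89.2 to 303 in βKlf6KO saline, 97.5 to 168 in control S961 and 159 to 259 in βKlf6KO S961. Of 9 macrophage markers 4 were higher after saline and 1 after S961, with summed levels of 82.1 to 136, 122 to 690, 79.9 to 175 and 114 to 398 CPM in that order. Lymphocyte markers gave 2 of 6 higher after saline and 0 after S961 (0 at an unadjusted p below 0.05), at 1.65 to 68.5 CPM over all libraries. Of 11 β cell markers, 3 were lower after saline and 5 after S961, among them the transcription factor Nkx6-1 and the glucose transporter Slc2a2 under both. Gc was the 1 of 5 α cell markers called, higher under both treatments, and Spp1 the 1 of 5 ductal markers, higher after S961. Endothelial markers gave 0 of 11 under either treatment (1 lower at an unadjusted p below 0.05 after saline and 0 after S961), acinar markers 0 of 7 (0 and 5 higher), and δ and PP cell markers 0 of 3 (0 and 0). The covariate fit given above held only the endothelial and macrophage means. Over the 28 libraries the fibroblast mean ran with Klf10 (r of 0.59) and Klf11 (0.49, permutation adjusted p = 0.00384 and 0.0218). The β cell mean ran against Klf11 (-0.59, permutation adjusted p = 0.00384). With the mean of each labelled group removed, these values were 0.34, 0.03 and -0.35. The part of the other marker lists, fibroblast and β cell markers among them, in the Klf10 and Klf11 differences was not tested.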

How the data were processed

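Poly(A) RNA of islets was sequenced from 28 mice, each giving 1 library, and the spread behind every p-value is that between mice. The authors deposited 1 table of log2 CPM per gene and library, made with STAR 2.5.3a, HTSeq 0.9.1 and edgeR on GRCm38, per the submitters' processing notes. The strand setting of the counting is not known, and genes that overlap, on either strand, may hold each other's reads. Inverting log2 of reads plus 0.5 over a scaled library size gave whole reads within 0.05 for 100% of values. A count of 0 allows up to 3 reads, 0.069 to 0.105 CPM, for counting error only.

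Groups came from the sample labels and coordinates from GENCODE M21, in which 14210 IDs were found. A gene was tested where 6 or more libraries had at least 1 CPM (13591 genes, with 628 left out). Means of the 4 groups were fitted to the deposited values with limma 3.58.1 in R 4.3.3 (empirical Bayes with a trend), two-sided, with Benjamini-Hochberg adjustment over all genes of a comparison, and genes were called below 0.05. The fit was tested on simulated data. Correlations were tested by 100000 permutations of the libraries, two-sided, with numpy 2.4.6 and scipy 1.17.1. The members and lists were chosen with earlier results of these data known. The named genes were the 10 members, the 8 most and 4 least like Klf6 among genes of mean level 4 CPM or more, without predicted gene names, and up to 3 called members per list with the smallest p, and other genes named were chosen after their values were seen. Alternatives were scalings, filters, weights, covariates, a replicate block and each library left out. Those chosen after seeing the data were the marker means as covariates, the averaged genotype comparison and the families of 36 and 90 correlations.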

Additional observations from a re-analysis of the deposited data

Results flagged for a closer look

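In 4 of 40 sets of values (10 members in 4 labelled groups), 1 library stood further from its neighbour than Dixon's limit for the group size allows, and chance alone gives this in about 1 in 20 groups. The library labelled βKlf6KO saline replicate 1 was highest for Klf7 at 4.89 log2 CPM, with the next at 4.49. The library labelled βKlf6KO saline replicate 6 was lowest for Klf9 at 5.25, with the next at 5.40. The library labelled control saline replicate 4 was highest for Klf10 at 5.68, with the next at 5.10, and lowest for Klf13 at 4.64, with the next at 4.99. That library was one of the 3 that stood highest on the GC-related component.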

How the results depend on the processing

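Counts of called members changed as follows. For genotype after saline, with 0 members called, library weights gave 4 and the first principal component as covariate 2, where 22.2% and 20.8% of all genes were called. For genotype after S961, with 1 called, the component as covariate gave 3, where 28.2% of all genes were called. Median centring gave 0 where 3.47% of all genes were called, and a fit of only the groups compared gave 0 where 0.258% were. The endothelial and macrophage means as covariates gave 0 where 0.0147% were called. Leaving out 1 library gave 0 to 2 for that comparison, with 0 without replicate 2, 3 or 5 of control S961 or replicate 2, 6 or 7 of βKlf6KO S961. It gave 2 (Klf11 and Klf9) without replicate 4 of the control saline or βKlf6KO S961 libraries or without replicate 1 or 6 of control S961. Those fits called 177 to 500 genes in all where they gave 0, and 752 to 817 where they gave 2. For genotype averaged over treatments, with 3 called, median centring gave 1, where 12.8% of all genes were called. The marker means as covariates gave 0 in the averaged comparison, where 1.69% were called. Klf10 lost its call there without any 1 of 10 libraries (adjusted p from 0.0513 to 0.0678). Of 9 correlations with Klf6, 5 passed, and 3 each passed with the component removed, without the 2 libraries farthest in Klf6 and without the 3 libraries highest on the component. With median centring Klf10 and Klf11 also passed, at r of 0.47 and 0.43. Both counts that left out libraries rest on fewer samples, and for the other changes the cause was not tested. The S961 comparisons and the difference of responses kept 0 called members under each alternative. Of 3136 single values under 45 settings, 24 lost and 12 gained a call, and 168 that passed in neither fit changed sign.

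Replicate numbers did not pair the libraries. Of 38 pairs with the same number, 13 had a correlation of deviations over 0.1, with the lowest at -0.71, and 2 of 28 libraries were closest to their own number. With the replicate block, 1 member was called for genotype after S961, 0 after saline and 3 in the averaged comparison. Depth limits Klf2, at 9 to 101 reads per library, more than the other members.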
